A study of Mus musculus with 9 samples.

Results

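The transcripts described here are 36 genes of glycolysis and of the response to low oxygen, measured in group 2 innate lymphoid cells (ILC2s) of the mouse. They were taken from the deposited count table by gene symbol; the rule uses no measured value, but the list was drawn up with earlier results of these data known. All 36 symbols were found, on 37 of the 23466 genes in the table, because the symbol Eno1 stood on 2 genes; the second is named Eno1b in the reference and is called so below. The list holds 22 genes of glycolysis (21 symbols: glucose and lactate transporters, the enzymes from hexokinase to lactate dehydrogenase, and the PFK2 enzymes that regulate phosphofructokinase) and 15 genes of the hypoxia-inducible factor (HIF) pathway. The filter on low counts left 36 of the 37 for testing, 22 of glycolysis and 14 of the HIF pathway; Ankrd37, a HIF target, did not pass it.

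ILC2s are tissue-resident lymphocytes that release type 2 cytokines when their tissue is damaged. All mice were wild type, 10 weeks old and C57BL/6J (C57/Bl6 in another label field). The 3 groups of 3 libraries were ILC2s from the brain meninges of uninjured mice, ILC2s from the brain meninges of mice that had received a spinal cord contusion of 80 kdyn 24 h before they were killed, and ILC2s from the lung of uninjured mice. The sort took live CD45+ cells without lineage markers that carried ST2 and Thy1. Per the labels, 5 mice were pooled for a group, and they do not say whether each library had a pool of its own. The p-values therefore reflect only how much the libraries of a group differ, and that spread may be technical. No group was labelled as sham-operated, so the contusion and the surgery around it cannot be told apart.

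Cells break glucose down to pyruvate by glycolysis, and lactate dehydrogenase turns pyruvate into lactate when glycolysis outruns the mitochondria or oxygen is short. HIF is a pair of proteins, an alpha subunit (from Hif1a or Epas1) and the constant partner ARNT. In normal oxygen the prolyl hydroxylases encoded by the Egln genes mark the alpha subunit, the VHL ubiquitin ligase binds it and it is destroyed, so HIF activity is set mainly at the level of protein. When oxygen falls the pair binds short DNA elements and raises transcription of glucose transporters, glycolytic enzymes, Vegfa, Pdk1 and other targets. HIF also acts in activated immune cells in normal oxygen.

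The libraries held 13407277 to 18253462 counts, of which mitochondrial ribosomal RNA took 23.5% to 32.5%. Levels are given in CPM, counts scaled to a common library size with the trimmed mean of M values. A count of 0 in a library allows a level of up to 0.163 to 0.239 CPM (3 counts), a limit that covers counting error only, since amplified reads are not independent molecules. All 9 libraries held the genes of ILC2s and of the sort: the summed level of 10 such genes was 7655 to 8247 CPM in uninjured meninges, 8392 to 11134 CPM in injured meninges and 7787 to 10135 CPM in lung. Of these 10, 1 was called lower in each comparison, named here after the values were seen. Thy1, a marker of the sort, was at 51.4 to 92.5 CPM in injured and 167 to 279 CPM in uninjured meninges (edgeR adjusted p = 0.022). Areg, the growth factor amphiregulin, was at 11.6 to 25.9 CPM in uninjured meninges, 5.09 to 14.5 CPM in injured meninges and 67.6 to 320 CPM in lung (edgeR adjusted p = 0.0072 and 0.00098 against lung). Injured meninges 2 stood apart, with 13465 genes detected, the fewest, and Spearman correlations across genes of 0.815 and 0.819 with the other libraries of its group; list medians and the fold changes of Hif1a and Pdk1 are also given without it. A gene is called changed at a Benjamini-Hochberg adjusted p under 0.05 in edgeR's quasi-likelihood test, adjusted over all 15117 genes tested. Error terms on log2 fold changes are standard errors.

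HIF binds DNA at a core written ACGTG or GCGTG, and the promoters of the members were searched for these letters on both strands in the 250 bases before the transcription start (RefSeq, build GRCm38.p6). Promoters were listed for 32 of the 36 genes, with 48 starts; none was listed for Epas1, Slc2a3, Bnip3l and Ndrg1. The core letters stood in 37 of the 48 member promoters (77.1%) and in 12679 of all 32851 promoters listed (38.6%). Counted by gene with any start, they stood in 29 of 32 members (90.6%) and in 41.5% of all genes. The member windows had a mean GC content of 60.9% ± 9.47 (SD over 48 promoters), against 53.2% ± 11.6 over all promoters, and the part of base composition in this difference was not tested. The letters also lie within CACGTG, the E-box read by other factors, which stood in 12.5% of member promoters and in 6.0% of all. A match describes the letters and is not evidence of binding. The list was chosen to hold HIF pathway genes and kinds of genes that HIF raises. The higher share is therefore no independent finding about the members. Of the 2 starts listed for Vegfa, the upstream one had no match in its window and the other had 2. As examples, the windows of Hif1a (chr12:73907617-73907866, plus strand) and Ldha (chr7:46845554-46845803, plus strand, 1 of 2 starts) are shown. So are those of Slc2a1 (chr4:119108495-119108744, plus strand) and Pdk1 (chr2:71872974-71873223, plus strand, 1 of 2 starts). None of these genes was called in any comparison below, and the windows of Vegfa, which was called, are not shown. Capitals mark the core letters on either strand.
Hif1a: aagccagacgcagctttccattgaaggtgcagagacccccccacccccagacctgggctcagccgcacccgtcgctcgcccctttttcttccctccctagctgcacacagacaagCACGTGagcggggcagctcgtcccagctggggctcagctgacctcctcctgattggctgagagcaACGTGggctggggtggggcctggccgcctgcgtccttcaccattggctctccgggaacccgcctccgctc
Ldha: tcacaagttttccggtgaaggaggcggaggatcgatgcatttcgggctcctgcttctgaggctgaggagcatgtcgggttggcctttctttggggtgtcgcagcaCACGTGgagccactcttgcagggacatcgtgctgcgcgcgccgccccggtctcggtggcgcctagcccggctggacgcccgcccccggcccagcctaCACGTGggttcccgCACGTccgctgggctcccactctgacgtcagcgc
Slc2a1: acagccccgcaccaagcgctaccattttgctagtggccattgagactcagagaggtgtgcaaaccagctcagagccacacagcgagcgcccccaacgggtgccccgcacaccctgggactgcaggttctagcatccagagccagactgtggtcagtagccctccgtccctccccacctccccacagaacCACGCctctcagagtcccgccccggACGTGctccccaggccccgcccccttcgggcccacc
Pdk1: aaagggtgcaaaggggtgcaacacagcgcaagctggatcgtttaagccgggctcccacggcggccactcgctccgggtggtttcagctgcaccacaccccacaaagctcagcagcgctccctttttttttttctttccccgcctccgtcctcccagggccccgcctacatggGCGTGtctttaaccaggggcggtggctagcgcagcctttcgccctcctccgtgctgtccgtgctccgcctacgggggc
The Hif1a and Ldha windows each held the palindrome CACGTG, which matches on both strands, while the windows of Slc2a1 and Pdk1 held cores outside it. Where 2 starts were listed, the window with more matches is the one shown. The other start of Pdk1 had 0 matches, and the other start of Ldha had 1 against 5 in the window shown, counting both strands.

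Epas1 and Vegfa were the members called in any comparison, both against lung. Epas1, which encodes a HIF alpha subunit, was the most abundant member per kilobase of exon in the lung libraries and was lower in both groups of meningeal libraries. Hif1a, the gene of the other alpha subunit, had its 3 highest values in the 3 libraries of injured meninges, a difference from uninjured meninges that did not pass the test over all genes. Vegfa was nearly confined to lung among these 9 libraries. No gene of glycolysis was called in any of the 3 comparisons.

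**Figure D1:**
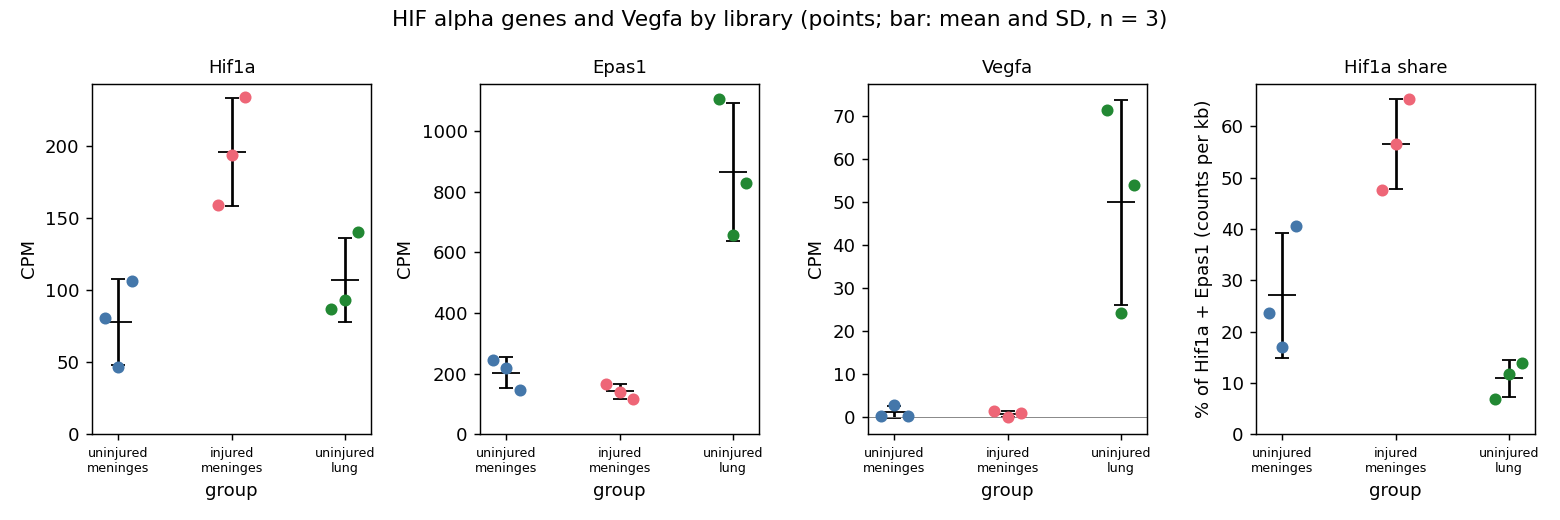
Levels of Hif1a, Epas1 and Vegfa in CPM and the Hif1a share of Hif1a plus Epas1 counts per kilobase in percent (y axes) for each group (x axis). Points are libraries and bars give the mean and SD of 3; injured meninges are highest for Hif1a at 159 to 234 CPM, and lung is highest for Epas1 at 657 to 1106 CPM and for Vegfa at 24.2 to 71.6 CPM.

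Epas1 was at 246, 218 and 147 CPM in uninjured meninges, 166, 141 and 118 CPM in injured meninges, and 1106, 657 and 828 CPM in lung. Every lung library lay above every meningeal library, while the ranges of the meningeal groups overlapped. Epas1 was the only member called in uninjured meninges against lung, 1 of 36 tested, where 0.635% of all tested genes were called. It was lower by a log2 fold change of -2.08 ± 0.26 (edgeR adjusted p = 0.00086), with means of 204 ± 50.8 CPM and 864 ± 227 CPM (SD, n = 3 each), a ratio of means of 4.24 in favour of lung. In injured meninges against the same lung libraries the log2 fold change was -2.61 ± 0.26 (edgeR adjusted p = 0.00015). Between injured and uninjured meninges the value was -0.53 ± 0.25 (edgeR adjusted p = 0.56), so a change after injury was not shown.

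Epas1 is also known as a gene of blood vessel lining cells, and markers of these cells moved with it. The summed level of 10 endothelial markers, all detected in each group, was 490 to 1290 CPM in lung, 131 to 295 CPM in uninjured meninges and 156 to 202 CPM in injured meninges. Because each library is a bulk sample, fewer cells of a type and less RNA per cell cannot be told apart. Within lung, library 2 had the lowest endothelial sum (490 CPM) and the lowest Epas1 (657 CPM). With lung 2 as the sole lung library, an alternative chosen after the data were seen in which that library is assumed to vary like the other groups, Epas1 stood at -1.69 with an edgeR adjusted p of 0.058. Over its 18 alternatives this adjusted p ran from 7.4e-09 to 0.058, under the threshold in 17. Of the 10 endothelial genes, Calcrl, which encodes a peptide hormone receptor, was the 1 called lower in the meninges in either comparison with lung. In uninjured meninges 2, Epas1 was at 218 CPM and the endothelial sum at 131 CPM, of which Calcrl (87.3 CPM) and Pecam1 (40.8 CPM) made up most, with the other 8 genes at 0 to 0.84 CPM. Markers of fibroblasts also moved with the lung difference: 8 genes summed to 107 to 284 CPM in lung, 4.65 to 82.0 CPM in uninjured meninges, where Dpt had no counts, and 3.89 to 33.9 CPM in injured meninges, where Lum, Pdgfra and Dpt had none; 1 and 2 of the 8 were called lower in uninjured and injured meninges against lung. The part of endothelial and fibroblast RNA in the lung difference was not tested.

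Hif1a was at 80.7, 47.0 and 106 CPM in uninjured meninges, 159, 194 and 234 CPM in injured meninges, and 87.1, 93.0 and 140 CPM in lung. The injured libraries overlapped with neither other group. The log2 fold change in injured against uninjured meninges was 1.33 ± 0.33, a ratio of means of 2.51, with an edgeR adjusted p of 0.18 (0.00098 before adjustment), so Hif1a was not called. It was the sole member whose injured and uninjured libraries did not overlap, 1 of 36 (2.8%), against 12.1% of all tested genes. DESeq2 gave an adjusted p of 0.019 and edgeR with no filter on low counts gave 0.039; over 18 alternatives the adjusted p ran from 0.019 to 0.53, the highest without uninjured meninges 2, and the log2 fold change from 1.07 to 1.61. Without injured meninges 2 it was 1.34 (edgeR adjusted p = 0.24). Uninjured meninges against lung gave -0.45 ± 0.32 (edgeR adjusted p = 0.87) and injured meninges against lung 0.87 ± 0.32 (edgeR adjusted p = 0.24).

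The antisense transcript Gm15283 overlaps Hif1a, and no source used here gives the strand setting of the counting. Reads of this pair cannot be told apart. Gm15283 was at 12.6, 5.68 and 21.5 CPM in uninjured meninges, 22.6, 46.8 and 35.3 CPM in injured meninges and 3.93, 8.91 and 16.6 CPM in lung. It was thus also highest in the injured libraries, at a lower level than Hif1a in every library.

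The balance of the alpha subunit transcripts was also compared within each library. Hif1a made up 23.7%, 17.0% and 40.5% of the summed Hif1a and Epas1 counts per kilobase in uninjured meninges (27.1% ± 12.1, SD, n = 3), 47.7%, 56.6% and 65.3% in injured meninges (56.5% ± 8.84) and 6.95%, 11.8% and 13.9% in lung (10.9% ± 3.55). None of the 3 groups overlapped with another. In each of the 3 comparisons the two-sided exact permutation p was 0.10, the smallest that 3 libraries against 3 allow, or 0.48 after Benjamini-Hochberg adjustment over the 24 share tests made. Such a share does not depend on scaling between libraries, and the difference after injury stayed between 24.4 and 36.2 percentage points when any 1 library was left out.

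Arnt, the gene of the shared partner, varied little: it ranged from 117 to 191 CPM over the 9 libraries, with group means of 144 ± 9.98, 144 ± 40.7 and 150 ± 15.8 CPM (uninjured meninges, injured meninges, lung). Its log2 fold changes lay between -0.05 and 0.00 with a standard error of 0.26 in each comparison.

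Among the genes that sense oxygen and remove HIF, Egln1 was the main prolyl hydroxylase transcript, at 24.7 to 105 CPM, lowest in injured meninges 2. It made up 63.3% to 97.2% of the summed Egln1, Egln2 and Egln3 counts per kilobase. Egln2 ranged from 0.56 to 42.0 CPM and Egln3, itself a HIF target, from 0 to 6.88 CPM. Vhl, whose product binds the hydroxylated alpha subunit, ranged from 2.00 to 23.7 CPM and was higher in each injured library than in each lung library. None of these 4 genes was called in any comparison, and the log2 fold changes of the 3 scarcer ones carried standard errors of 0.96 to 2.35.

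Of the 8 HIF targets outside glycolysis, Vegfa, the main growth signal for blood vessels, showed the widest difference. It was at 0.22, 2.71 and 0.27 CPM in uninjured meninges, at 1.25, 0 and 0.81 CPM in injured meninges, and at 71.6, 24.2 and 54.1 CPM in lung. Every lung library lay above every meningeal one. Vegfa and Epas1 were the 2 of 36 members called in injured meninges against lung, where 1.05% of all tested genes were called. Vegfa was lower in injured meninges than in lung by a log2 fold change of -6.14 ± 1.29 (edgeR adjusted p = 0.030). In uninjured meninges against lung it was -5.55 ± 1.25 (edgeR adjusted p = 0.065), which missed the threshold.

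These calls of Vegfa moved with the libraries and settings used. In injured meninges against lung, the call held in 14 of 18 alternatives (edgeR or DESeq2 adjusted p from 4.3e-06 to 0.77) and was lost without injured meninges 3 (0.099), without lung 1 (0.15), without lung 3 (0.11) and with lung 2 alone (0.77). In uninjured meninges against lung it was called in 7 of 18 (adjusted p from 6.1e-05 to 0.95), among them DESeq2 and the fits without uninjured meninges 2 (0.028), without injured meninges 1 (0.046) or without injured meninges 2 (0.0050). The direction was negative in all 18 of both.

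Vegfa is known to be made by lung epithelium, and epithelial markers moved with it. The summed level of 9 lung epithelial markers was 699 to 2172 CPM in lung, lowest in lung 2 where Vegfa was also lowest. It was 4.03 to 11.6 CPM in uninjured meninges, where Sftpd, Scgb3a2 and Nkx2-1 had no counts, and 10.5 to 27.7 CPM in injured meninges, where Sftpc, Scgb3a2 and Nkx2-1 had none. Lung 2 held 24.2 CPM of Vegfa with Sftpc, the defining surfactant gene of alveolar type II cells, at 2.28 CPM and Scgb1a1, the secretoglobin of airway club cells, at 613 CPM. The fibroblast sums given above were also highest in lung. The part of epithelial and fibroblast RNA in the Vegfa difference was not tested.

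**Figure D2:**
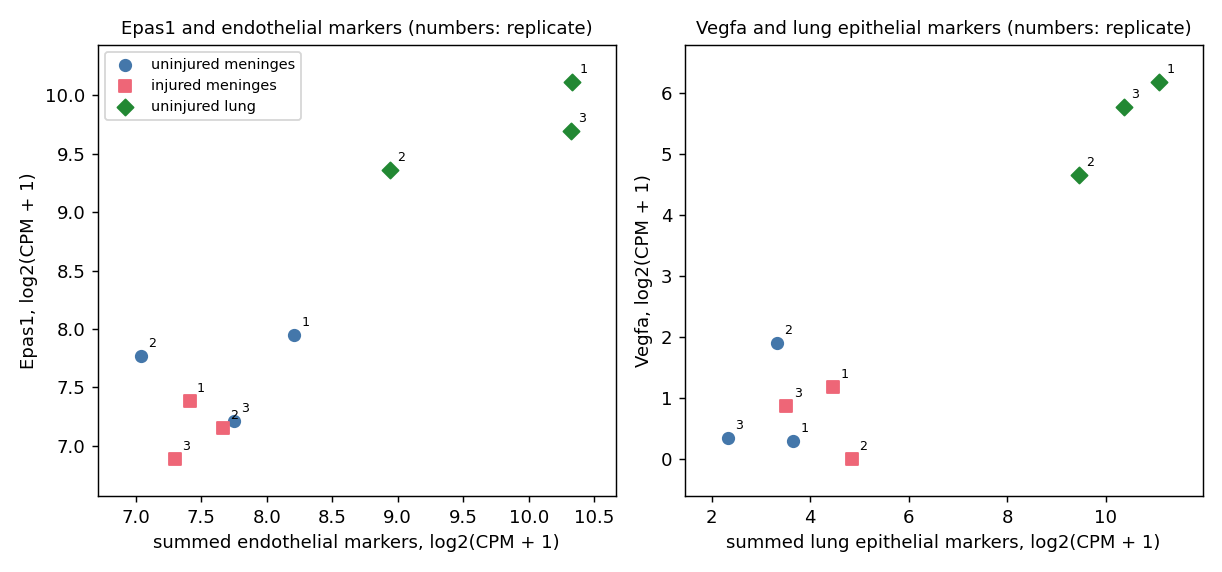
Epas1 against summed endothelial markers (left) and Vegfa against summed lung epithelial markers (right), all as log2(CPM + 1), with 1 point for each of 9 libraries numbered by replicate. The 3 lung libraries sit at the upper right in both panels, and lung 2 is the lowest of them on both axes of each.

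Pdk1 encodes a kinase that keeps pyruvate out of the mitochondria by switching off pyruvate dehydrogenase. It was at 61.6, 73.9 and 78.9 CPM in uninjured meninges, 49.2, 321 and 119 CPM in injured meninges and 54.8, 40.6 and 44.1 CPM in lung. The high injured mean of 163 ± 141 CPM came mostly from injured meninges 2, and injured meninges 1 lay below all uninjured meninges libraries. The log2 fold change in injured against uninjured meninges was 1.19 ± 0.48 (edgeR adjusted p = 0.50) and 0.24 (0.93) without injured meninges 2. Against lung, injured meninges stood at 1.81 ± 0.49 (edgeR adjusted p = 0.11), called in 3 of 18 alternatives (0.014 to 0.72), and at 0.86 without injured meninges 2. Uninjured meninges lay above lung in each library, at 0.62 ± 0.48 (edgeR adjusted p = 0.90).

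Bnip3l encodes a mitophagy receptor, a protein that marks mitochondria for removal. It was at 144, 101 and 110 CPM in uninjured meninges, 67.7, 106 and 98.7 CPM in injured meninges and 78.2, 92.0 and 65.1 CPM in lung. Uninjured meninges did not overlap with lung, at a log2 fold change of 0.60 ± 0.30 (edgeR adjusted p = 0.67), and overlapped with injured meninges, at -0.39 ± 0.30 (0.77). Its relative Bnip3 was scarce, at 0.54 to 9.31 CPM.

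The other targets were Kdm3a, a histone demethylase, at 64.3 to 289 CPM with its highest value in injured meninges 2, P4ha1, a collagen prolyl hydroxylase subunit, at 2.95 to 26.7 CPM, and Ndrg1 at 0.37 to 17.4 CPM. Ankrd37, the member that was not tested, had no counts in 5 of 9 libraries and reached 5.95 CPM in injured meninges 3. None of these was called.

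Summed over the 15 HIF pathway genes, the libraries held 970, 811 and 895 CPM in uninjured meninges, 829, 1279 and 1049 CPM in injured meninges and 1783, 1353 and 1448 CPM in lung. Lung was highest in each library, and Epas1 alone made up 48.6% to 62.0% of that sum in lung against 11.0% to 26.8% in the meninges. Without Epas1 the sums were 688 ± 83.1, 911 ± 238 and 665 ± 39.1 CPM (SD, n = 3 each, in the same order), and the lung range lay within the range of uninjured meninges.

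**Figure D3:**
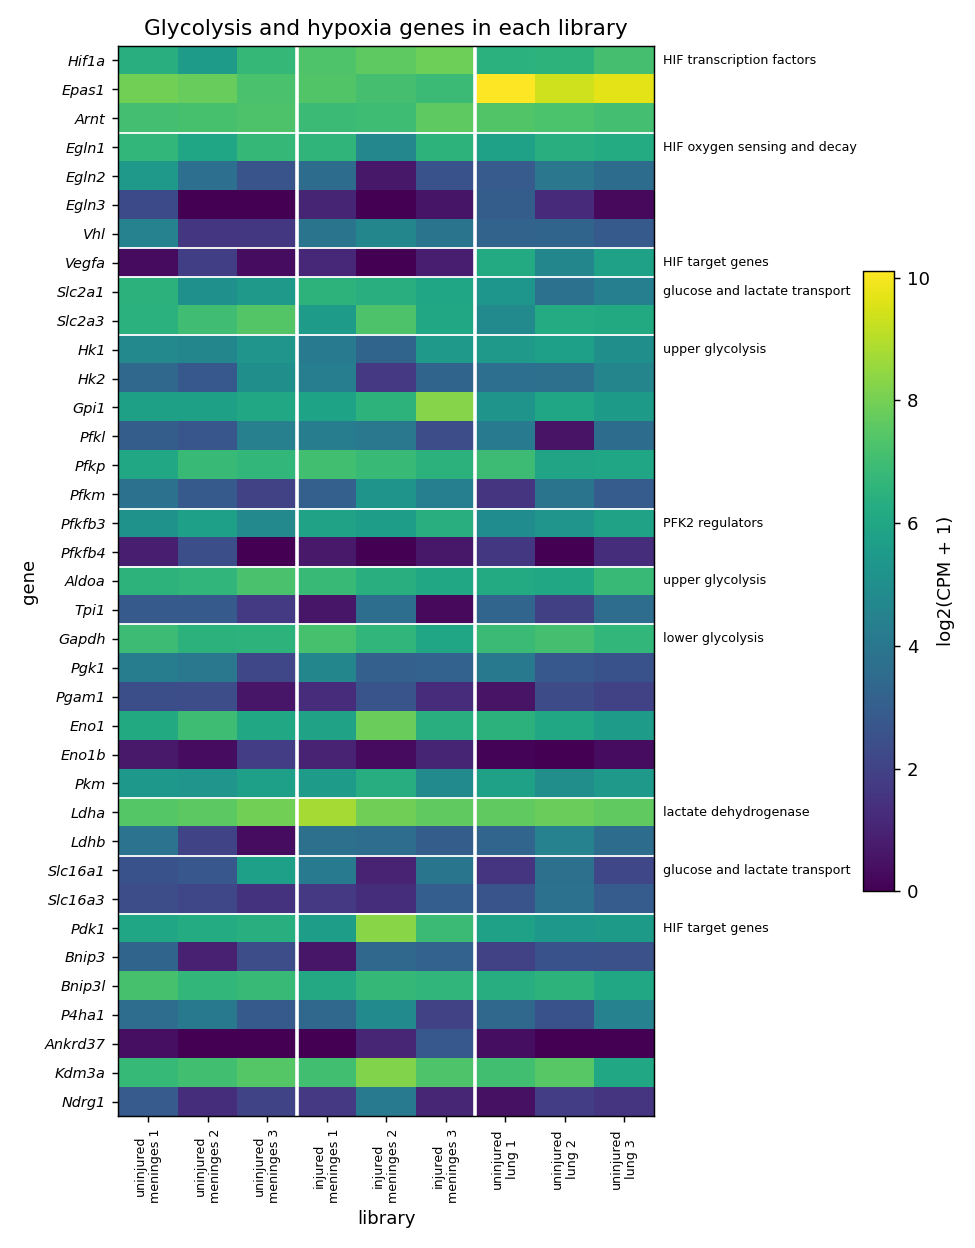
Level of each of the 37 members (rows, ordered along the pathways with the HIF genes at top and bottom) in each of 9 libraries (columns), coloured by log2(CPM + 1). The bright Epas1 and visible Vegfa cells in the lung columns stand out from even rows such as Arnt and Gapdh. So do single bright cells of Ldha (injured meninges 1), Eno1 and Pdk1 (both injured meninges 2) and Gpi1 (injured meninges 3).

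No glycolytic transcript passed the test after injury. Of 22 tested, 0 were called in injured against uninjured meninges, where 0.192% of all genes were called; the fold change was upward for 13 and downward for 9, and for each gene the ranges of the groups overlapped. At an unadjusted p under 0.05 stood 1 glycolytic gene of 22 (4.5%) in edgeR, against 8.94% of all tested genes. DESeq2 called no glycolytic gene. In edgeR 3 of the 14 tested HIF pathway genes (21.4%) had an unadjusted p under 0.05, 2 higher and 1 lower, and 0 were called. The median log2 fold change was 0.14 over glycolysis and 0.11 over the 14 tested HIF pathway genes, against 0.00 over all genes tested. These medians moved with single libraries. The glycolysis median was 0.022 without injured meninges 2, 0.33 without injured meninges 3 and 0.32 without uninjured meninges 3. The HIF pathway median turned to -0.076 without injured meninges 2 and -0.081 without injured meninges 3, and to -0.022 under upper-quartile scaling and -0.024 with the filter at 10 CPM; leaving out any other library gave 0.049 (uninjured meninges 3) to 0.47 (uninjured meninges 2). Single members differed in direction: values ran from -2.11 for Pfkfb4, a scarce gene, to 1.50 for Pfkm. Summed markers of B cells, 8 genes, were at 214 to 946 CPM in uninjured and at 33.1 to 137 CPM in injured meninges, and their part in the injury values was not tested. Ighm, the immunoglobulin heavy chain gene, was the 1 of these 8 called in that comparison, at 184 to 886 CPM in uninjured and 28.6 to 59.1 CPM in injured meninges (log2 fold change -3.69 ± 0.48, edgeR adjusted p = 0.0035). Summed markers of monocytes and macrophages, 8 genes, were at 26.8 to 92.5 CPM in uninjured meninges, 72.1 to 158 CPM in injured meninges and 38.7 to 495 CPM in lung. After injury 7 of these markers were higher and 1 was lower, with 0 called, and their part in the injury values was not tested.

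**Figure D4:**
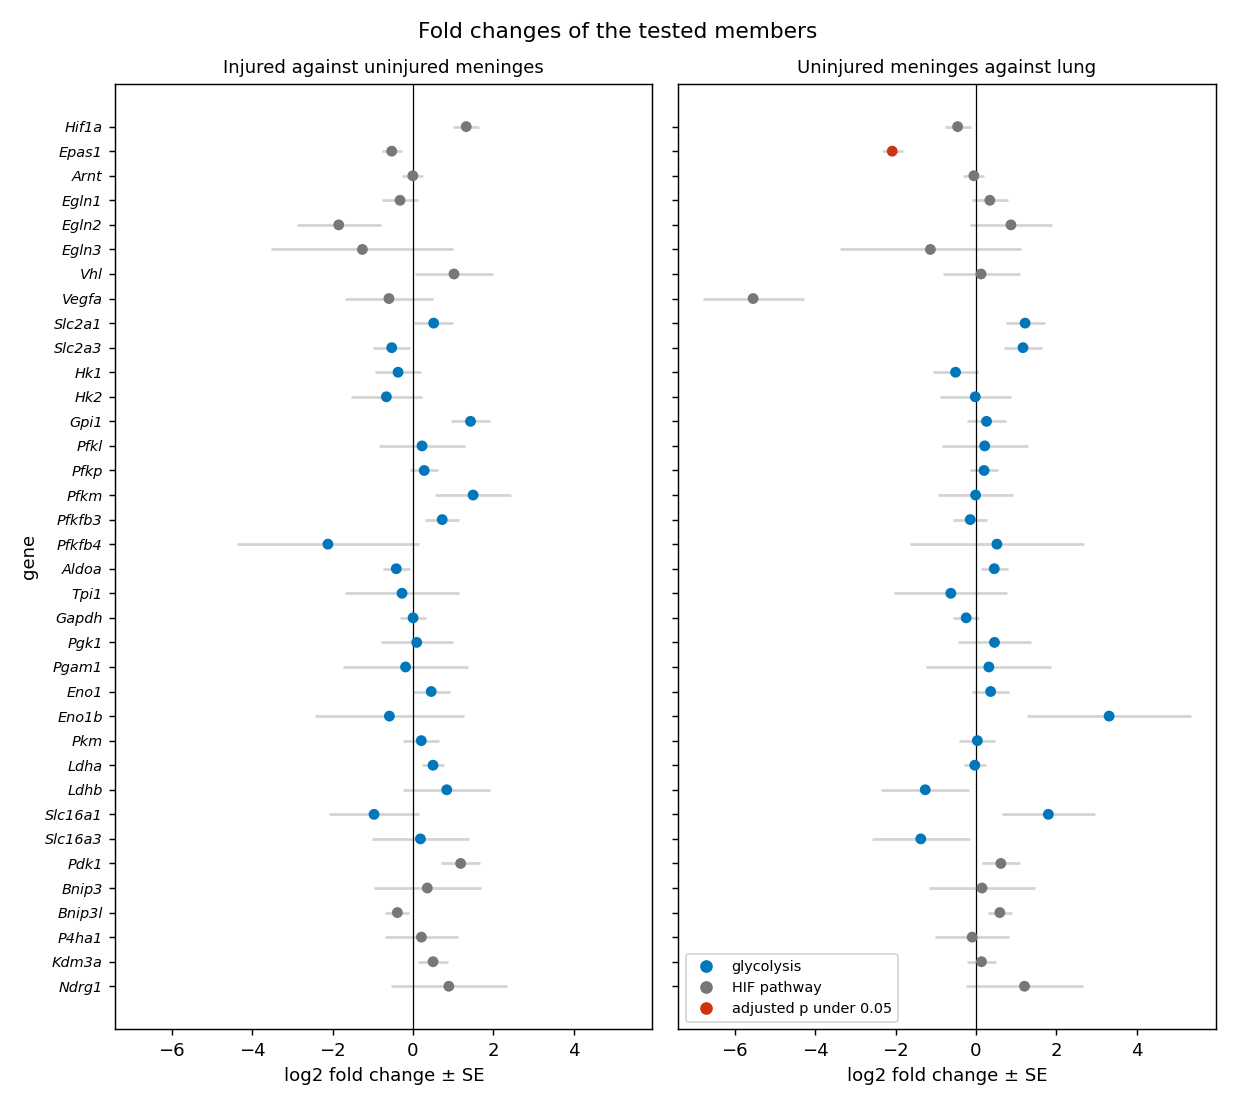
Log2 fold change and standard error (x axis) of the 36 tested members (y axis) for injured against uninjured meninges (left) and uninjured meninges against lung (right), from 1 edgeR fit. Red marks an adjusted p under 0.05, which only Epas1 at -2.08 in the right panel reached in these 2 comparisons; bars are widest for scarce genes.

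Precision set what could be seen. For the 18 members with a mean above 20 CPM the median standard error was 0.40 in the injury comparison and also 0.40 in uninjured meninges against lung, and for the 18 tested members at or under 20 CPM it was 1.11 and 1.19. Differences of several standard errors could still go uncalled with these libraries. Hif1a at 1.33 ± 0.33 after injury and Vegfa at -5.55 ± 1.25 in uninjured meninges against lung were not called (edgeR adjusted p = 0.18 and 0.065).

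Glucose enters through GLUT proteins, and 2 genes of such transporters are members; neither passed the test in any comparison. Slc2a3, which encodes the high-affinity transporter GLUT3, was at 87.2, 130 and 167 CPM in uninjured meninges, 45.8, 157 and 63.9 CPM in injured meninges and 27.6, 73.3 and 69.5 CPM in lung. Uninjured meninges lay above lung in every library, at a log2 fold change of 1.17 ± 0.47 (edgeR adjusted p = 0.46), and injured meninges overlapped with both other groups.

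Slc2a1, which encodes the widely used transporter GLUT1, was at 89.5, 32.6 and 43.8 CPM in uninjured meninges, 92.5, 83.0 and 62.1 CPM in injured meninges and 38.7, 12.9 and 19.3 CPM in lung. Injured meninges lay above lung in every library, while uninjured meninges overlapped with both. The log2 fold change was 1.74 ± 0.49 in injured meninges against lung (edgeR adjusted p = 0.12, called in 3 of 18 alternatives, 0.021 to 0.37), 1.22 ± 0.49 in uninjured meninges against lung (0.46) and 0.52 ± 0.48 in injured against uninjured meninges (0.83).

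Lactate leaves or enters cells through the monocarboxylate transporters of Slc16a1 and Slc16a3, both scarce. Slc16a1 was at 1.03 to 51.1 CPM with its highest value in uninjured meninges 3, and Slc16a3 at 1.51 to 12.7 CPM with each lung library above each uninjured meninges library. Slc16a1 took 74.0% ± 20.5 of their summed counts per kilobase in uninjured meninges and 41.2% ± 11.3 in lung (SD, n = 3 each), groups that did not overlap (exact permutation p = 0.10, adjusted 0.48).

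In upper glycolysis, hexokinase traps glucose in the cell. Hk2, the inducible form and a HIF target, was at 9.47, 5.87 and 31.8 CPM in uninjured meninges, 19.1, 2.23 and 8.46 CPM in injured meninges and 11.8, 12.4 and 23.4 CPM in lung. The ranges overlapped throughout, with log2 fold changes of -0.66 ± 0.89 after injury and -0.02 ± 0.88 in uninjured meninges against lung (edgeR adjusted p = 0.89 and 1.00). Hk1, the constant form, made up 39.2% to 77.7% of the counts per kilobase of this pair.

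Gpi1, the enzyme that turns glucose phosphate into fructose phosphate, had the smallest unadjusted p among glycolytic genes after injury and is named after its values were seen. Its log2 fold change was 1.44 ± 0.49 (edgeR adjusted p = 0.43; 0.41 to 1.83 over 18 alternatives), with 309 CPM in injured meninges 3 and 36.2 to 91.6 CPM in the other 8 libraries. Phosphofructokinase, the committing step, had most counts on the platelet form Pfkp, at 58.3 to 132 CPM, beside Pfkl at 0.44 to 20.3 CPM and Pfkm at 1.97 to 36.4 CPM. Per kilobase Pfkp took 39.6% to 75.6% of the counts of these 3 genes, and in injured meninges 2 Pfkm took more (49.8%). That order rests on the lengths used, 13401 bases for Pfkp and 3340 for Pfkm. In CPM, Pfkp was at 116 and Pfkm at 36.4 in that library. Pfkm overlaps Senp1 on the opposite strand, which was at 87.2 to 198 CPM.

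The enzyme of Pfkfb3 makes a sugar phosphate that activates phosphofructokinase. Pfkfb3 was at 35.2, 50.7 and 26.1 CPM in uninjured meninges, 55.0, 48.8 and 81.8 CPM in injured meninges and 28.9, 38.1 and 56.4 CPM in lung. The groups overlapped, at 0.73 ± 0.43 after injury (edgeR adjusted p = 0.67) and -0.14 ± 0.43 in uninjured meninges against lung (0.99). Pfkfb3 took 88.3% to 100% of the counts per kilobase of Pfkfb3 and Pfkfb4. Aldoa, the aldolase of these cells, ranged from 63.4 to 149 CPM and Tpi1 from 0.19 to 11.5 CPM.

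Gapdh, which opens the lower part of the pathway and a common reference gene, was at 123, 89.6 and 91.1 CPM in uninjured meninges, 144, 99.6 and 60.9 CPM in injured meninges and 117, 139 and 103 CPM in lung. Its log2 fold change after injury was 0.01 ± 0.32 (edgeR adjusted p = 1.00) and turned to -0.10 under upper-quartile scaling, which moved the median of all genes by -0.10. Against lung, uninjured meninges stood at -0.24 ± 0.32 (edgeR adjusted p = 0.98).

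Among the other enzymes of these steps, Eno1, an enolase, ranged from 46.8 to 220 CPM with its highest value in injured meninges 2, and Pkm, the pyruvate kinase, from 27.4 to 77.3 CPM. Pgk1 stood at 3.49 to 24.2 CPM, Pgam1 at 0.43 to 5.25 CPM and Eno1b at 0 to 2.55 CPM. The mouse genome carries many processed copies of Gapdh, Pgk1, Pgam1, Tpi1, Eno1 and Ldha, so reads that fit more than 1 place may be missing from these values and their levels are uncertain. None of these genes was called.

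Ldha, the main gene of lactate dehydrogenase, had the highest mean CPM of the glycolysis genes in each group, although Gpi1 exceeded it in injured meninges 3. It was at 171, 188 and 251 CPM in uninjured meninges, 429, 239 and 196 CPM in injured meninges and 198, 223 and 201 CPM in lung. Injured meninges 1 was the highest of all libraries and the other injured libraries lay within the range of uninjured meninges. The log2 fold change after injury was 0.50 ± 0.28 (edgeR adjusted p = 0.64). In uninjured meninges against lung it was -0.03 ± 0.28 (edgeR adjusted p = 1.00), and 0.01 under upper-quartile scaling. Ldha took 83.3% to 99.8% of the counts per kilobase of the Ldha and Ldhb pair in every library.

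The summed level of the 22 glycolysis genes was 933, 1002 and 1166 CPM in uninjured meninges, 1291, 1314 and 1149 CPM in injured meninges and 897, 902 and 873 CPM in lung. The meningeal groups overlapped, and each lung library lay below each meningeal library; with sums taken on raw library totals, lung 1 (928 CPM) lay just below uninjured meninges 1 (940 CPM). Different genes carried the high injured sums: Ldha was at 429 CPM in injured meninges 1, Eno1 at 220 CPM in injured meninges 2 and Gpi1 at 309 CPM in injured meninges 3. By gene, the highest of the 9 values fell in an injured library for 12 of the 22 (5, 5 and 2 in libraries 1, 2 and 3), in an uninjured meninges library for 7 and in a lung library for 3. The same count was not made over all tested genes, so these numbers do not set the glycolysis genes apart from other genes.

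**Figure D5:**
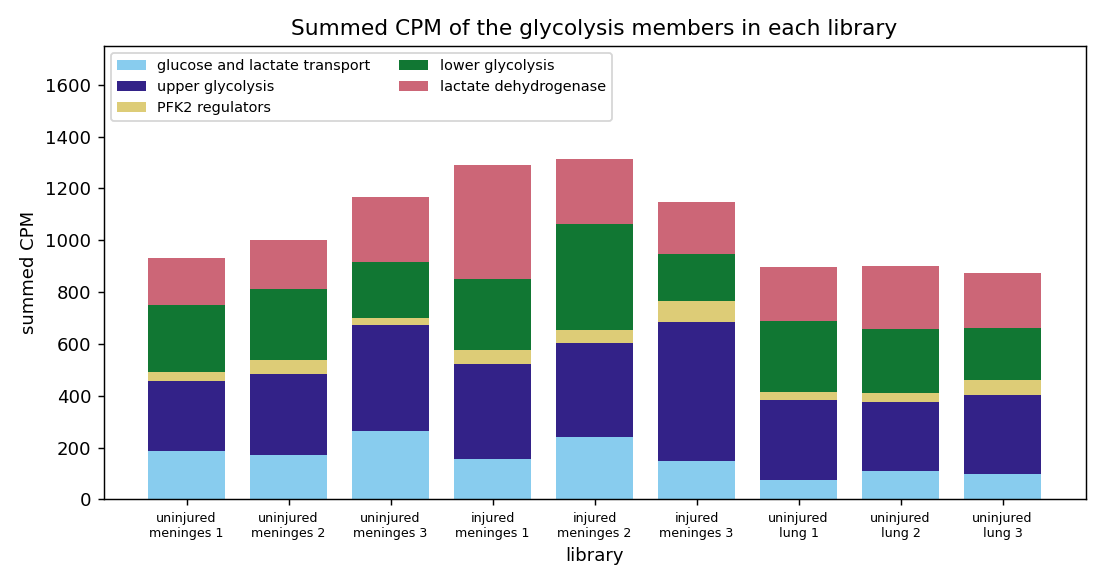
Summed CPM of the 22 glycolysis genes (y axis) in each of 9 libraries (x axis), stacked by step of the pathway. Lung columns reach 873 to 902 CPM, uninjured meninges 933 to 1166 CPM and injured meninges 1149 to 1314 CPM, with a different segment enlarged in each injured library.

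Against lung, uninjured meninges had 0 of 22 glycolytic genes called (2 at an unadjusted p under 0.05 in edgeR, Slc2a1 and Slc2a3, where 7.98% of all tested genes were, and 0 in DESeq2), a median of 0.21 and 13 positive values. Injured meninges against lung had 0 called in edgeR (2 at an unadjusted p under 0.05, Slc2a1 and Gpi1, where 13.3% of all tested genes were), a median of 0.46 and 15 positive values. DESeq2 called both genes, where it called 331 genes higher and 796 lower of 22287 tested. Without injured meninges 3 the edgeR log2 fold change of Gpi1 in this comparison was 0.67. The 2 comparisons with lung share the lung libraries. In uninjured meninges against lung the median was -0.00081 without lung 2, 0.077 without uninjured meninges 2 and 0.095 without uninjured meninges 3. In injured meninges against lung it was 0.048 without injured meninges 2, 0.18 without injured meninges 1 and 0.30 without lung 2. The medians over all genes tested were 0.00 and -0.01. Over all members, groups did not overlap for 7 of 36 (19.4%) in uninjured meninges against lung, where the background was 18.2% of tested genes, and for 5 of 36 (13.9%) in injured meninges against lung, with a background of 17.8%. Over all members these shares are near or below the background. Taken apart, HIF pathway genes stood at 4 of 14 (28.6%) in each of these comparisons, above the background. Glycolysis genes stood at 3 of 22 (13.6%) and 1 of 22 (4.5%). In edgeR an unadjusted p under 0.05 was found for 2 of 14 HIF pathway genes (14.3%) in uninjured meninges against lung. In injured meninges against lung it was found for 4 of 14 (28.6%). Over all tested genes these shares were 7.98% and 13.3%. The 7 members without overlap in uninjured meninges against lung were Slc2a3, Bnip3l, Pdk1 and Eno1b, higher in uninjured meninges, and Epas1, Vegfa and Slc16a3, higher in lung.

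Ranked per kilobase of exon over all 9 libraries, Epas1 stood highest at 72.1 CPM per kilobase, carried by 154 in lung against 36.4 in uninjured and 25.3 in injured meninges. Ldha followed at 70.4, with 61.4, 87.0 and 62.6 in uninjured meninges, injured meninges and lung, so that it led in both meningeal groups. Then came Aldoa at 32.2, Gapdh at 26.0, Bnip3l at 24.8, Hif1a at 21.5 and Egln1 at 21.5 CPM per kilobase. The lowest were Pfkfb4 at 0.22, Eno1b at 0.35 and Ankrd37 at 0.56.

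Beyond the members, 80 further genes of the same pathways were looked up, of which 71 were in the table and 64 were tested: regulators of HIF, other hypoxia targets, other glycolytic isoforms, the pentose phosphate pathway, entry of pyruvate to mitochondria and regulators of glycolysis. In injured against uninjured meninges 0 of 64 were called in edgeR, with 10 at an unadjusted p under 0.05, where 8.94% of all tested genes were, and DESeq2 called 3 (435 over all genes). Uninjured meninges against lung also had 0 called in edgeR, with 5 at an unadjusted p under 0.05, where 7.98% of all tested genes were, and DESeq2 called 1 (536 over all genes). In injured meninges against lung 4 were called, 3 higher and 1 lower, where 1.05% of all tested genes were called.

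Bhlhe40, a transcriptional repressor that hypoxia induces, was the one called lower. It was at 166, 245 and 341 CPM in uninjured meninges, 175, 66.3 and 110 CPM in injured meninges and 442, 649 and 674 CPM in lung. The log2 fold change in injured meninges against lung was -2.33 ± 0.34 (edgeR adjusted p = 0.0028), and 18 of 18 alternatives called it. After injury it was -1.10 ± 0.33 (edgeR adjusted p = 0.34), and every lung library lay above every meningeal one.

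Hif3a, which encodes a HIF alpha relative with forms that restrain HIF, was among those called higher in injured meninges than in lung. It was at 3.48, 0.13 and 5.91 CPM in uninjured meninges, 28.6, 83.7 and 33.3 CPM in injured meninges and 0.80, 0.07 and 2.11 CPM in lung. The injured libraries lay above all others. The log2 fold change was 5.59 ± 1.26 against lung (edgeR adjusted p = 0.046, called in 12 of 18 alternatives) and 3.93 ± 1.16 against uninjured meninges (0.32, called by DESeq2 alone). The call against lung was lost on leaving out any single lung library (0.077 to 0.18), injured meninges 2 (0.12) or injured meninges 3 (0.081), and with lung 2 alone (0.14).

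Ddit4, a brake on the growth kinase mTOR that stress and hypoxia induce, was also called higher in injured meninges than in lung, at 2.30 ± 0.53 (edgeR adjusted p = 0.049). It was at 53.1, 52.3 and 53.9 CPM in uninjured meninges, 55.9, 118 and 26.6 CPM in injured meninges and 8.60, 16.6 and 15.4 CPM in lung. Each meningeal library lay above each lung library. The call held in 6 of 18 alternatives (0.0010 to 0.72) and was lost on leaving out any library but injured meninges 3.

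Txnip, an inhibitor of glucose uptake, was at 667, 546 and 299 CPM in uninjured meninges, 776, 846 and 911 CPM in injured meninges and 470, 307 and 262 CPM in lung. It was higher in injured meninges than in lung by 1.29 ± 0.28 on the log2 scale (edgeR adjusted p = 0.033, called in 12 of 18 alternatives, 0.0011 to 0.27). The call was lost without injured meninges 2 (0.053) or 3 (0.10), without lung 2 (0.16) or 3 (0.17), with lung 2 alone (0.27) and under upper-quartile scaling (0.051). The injured libraries overlapped with neither other group, and the injury comparison gave 0.75 ± 0.27 (edgeR adjusted p = 0.48).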

How the data were processed

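Whole-number read counts per gene, not normalized, were deposited for 9 libraries. The submitters' processing notes name the mm9 build and the tools HTSeq, STAR and FastQC; versions and the strand setting are not given in the sources used here. Per the labels' protocols, RNA was amplified before library preparation, so a count is not an independent molecule.

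From these counts, edgeR 4.0.16 (R 4.3.3) kept 15117 genes with filterByExpr, scaled libraries by the trimmed mean of M values and fitted all 9 libraries with 1 mean per group, because 3 libraries per group give few degrees of freedom. Robust quasi-likelihood tests were adjusted by Benjamini-Hochberg over all genes tested, at a threshold of 0.05, and members were read off that table. The procedure was tested on simulated data, and the outcome is not given here. A standard error is the log2 fold change over the root of its F value. DESeq2 1.42.0, other scalings and filters, a replicate block and leaving out each library were alternatives. Levels per kilobase used the joined length of all exons annotated for a gene in GENCODE M21. This can exceed the length of the transcripts present, so shares and ranks per kilobase depend on the annotation. Shares within a gene family were compared by exact permutation tests over libraries. No 2 libraries of a group agreed within sampling noise (chi-square per degree of freedom at least 62.8). Same-numbered libraries showed little shared deviation, as the closing section gives.

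The members, the further pathway lists, the marker lists of ILC2s and 9 other cell types and the alternatives were chosen with earlier results of these data known. Members given in every library were those called, those whose groups did not overlap in injured against uninjured meninges or in uninjured meninges against lung with at least 10 CPM in each library of the higher group, and Hif1a, Epas1, Vegfa, Slc2a1, Hk2, Pfkfb3, Ldha and Gapdh; of each further list, the member with the smallest p in a comparison could be named, and all 4 called are. Promoter windows came from RefSeq (GRCm38.p6) and carry no coordinates of the deposited files.

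The summed levels of the other marker lists, lowest to highest library over all 9, were 26.8 to 495 CPM for monocytes and macrophages, 0 to 64.3 CPM for neutrophils, 33.1 to 946 CPM for B cells, 2.57 to 103 CPM for T cells, 3.24 to 21.2 CPM for erythroid cells and 80.8 to 216 CPM for neural and glial cells.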

Additional observations from a re-analysis of the deposited data

How the results depend on the processing

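With 3 libraries per group, depth and spread limit the scarce members most. The calls of Epas1 kept their direction in all alternatives. DESeq2 called 435, 536 and 1127 genes and 1, 2 and 5 members in the 3 comparisons (injury, uninjured meninges against lung, injured meninges against lung), and edgeR without a filter 78, 193 and 296 genes and 1, 2 and 5 members. With only the 6 libraries compared, 12 genes were called after injury and 226 genes with 2 members in uninjured meninges against lung; the filter at 10 CPM gave 2 members there. With lung 2 as the only lung library, chosen after seeing the data, 38 genes and 0 members were called in uninjured meninges against lung and 33 genes and 1 member in injured meninges against lung. Leaving out each library gave 18 to 27, 51 to 196 and 54 to 230 genes, and 0 to 0, 1 to 2 and 1 to 4 members.

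The replicate block gave 43, 136 and 183 genes and 0, 1 and 3 members, adding Slc2a1 in injured meninges against lung (edgeR adjusted p = 0.047). Deviations of same-numbered libraries correlated at -0.04 to 0.10 over 9 pairs, and those of different-numbered libraries at -0.12 to 0.09. No pairing was seen in these values, but with 3 libraries per group they cannot settle whether the numbers pair the libraries.

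On totals without mitochondrial ribosomal RNA, mean glycolysis sums were 1482, 1681 and 1199 CPM and HIF sums 1284, 1400 and 2066 CPM (uninjured meninges, injured meninges, lung); on raw totals the lung glycolysis sum was 862 CPM. Directions that turned were of values not called, and the cause was not tested. After injury Gapdh stood at -0.10 (upper quartile), -0.0074 (10 CPM filter), -0.052 (block) and, leaving out a library, at -0.32 to 0.27, Vegfa at -1.32 to 1.50, Hk2 at -1.55 to 0.37 and Ddit4 at -0.36 to 0.71. In uninjured meninges against lung, Ldha stood at 0.011 (upper quartile) and, leaving out a library, at -0.21 to 0.078, Hk2 at -1.05 to 0.38, Pfkfb3 at -0.43 to 0.15; Hk2 was 0.34 and Gpi1 -0.090 with lung 2 alone. In injured meninges against lung, Slc2a3 stood at -0.048 to 0.96 and Gapdh at -0.58 to 0.027 when a library was left out, and Bnip3l at -0.027 with lung 2 alone.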
